A study of Homo sapiens with 20 samples.

Results

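The genes described here are the nuclear-encoded genes of mitochondrial respiration and of the mitochondrial ribosome. Members were the protein-coding genes of the GENCODE 44 annotation (hg38), off the mitochondrial chromosome, whose symbol begins with NDUF, UQCR, COX and a digit, ATP5, MRPL or MRPS, which gave 181 of 20033 genes. An m6A peak was counted for a member when its summit, the position of the highest signal, lay in an exon of any annotated transcript of that gene. In all, 648 of the 231465 peaks in the 10 lists met this rule.

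The series profiled N6-methyladenosine (m6A) by MeRIP-seq, in which fragmented RNA is pulled down with an antibody against m6A (NEB E1610) and sequenced beside an input library of the same RNA. T24 is a human bladder cancer line that is sensitive to cisplatin, and T24R2 is a resistant line made from T24 by stepwise exposure to cisplatin and kept in medium with the drug. Both lines are labelled wild type, were grown in RPMI medium and were taken at day 3, with 5 IP and 5 input libraries each, and 1 parental line and 1 derived line stand for sensitivity and resistance. The comparison asks which transcripts carry m6A in the 2 lines and where.

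Each of the 10 lists of the IP libraries held between 17203 and 33120 peaks, fewest in T24 replicate 2 and most in T24R2 replicate 5. No row was the same in interval and fold in 2 lists, so each library counted as 1 replicate. The lists hold no read counts, so the depth of each library is unknown. Of 17 urothelial and epithelial marker genes, 6 had a peak in an exon in at least 1 list (FOXA1, GATA3, KRT7, KRT18, PPARG and UPK1A). The same held for 2 of 6 immune markers (CD14 and CD68) and 4 of 6 endothelial and fibroblast markers, of which PECAM1 and CDH5 had a peak in all 10. A peak shows that antibody enrichment was called, not how much RNA a gene makes, so these counts neither identify nor contradict the labelled cell type.

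Mitochondria make ATP through respiratory complexes that pass electrons to oxygen and through an ATP synthase that uses the resulting proton gradient. Most of these subunits are encoded in the nucleus and imported, while a few core subunits are encoded in mitochondrial DNA and made by a dedicated mitochondrial ribosome, whose proteins are also nuclear-encoded. Assembly factors insert heme, copper and subunits into the complexes without being part of the final enzyme. In messenger RNA, m6A is placed mostly in the sequence context DRACH, in which the methylated A follows a purine and precedes C, the first base is any but C and the last any but G, and is known to lie mainly in long exons and around the stop codon.

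Short stretches around a DRACH motif are given for the assembly factors with a peak in all 10 lists in their own exons. A selection of the 15 ribosomal proteins with such a peak is added. Each is 30 bases of the sense strand of hg38, 5′ to 3′, written as DNA. The capitals mark the DRACH motif nearest to the median summit of the region, which is not a mapped m6A site. The assembly factors come first, then the ribosomal proteins, and COX6B2, which had a peak in the T24 lists only, closes the set.
COX10 (chr17:14076914-14076943, plus strand, exon 3 of 7, CDS): agaactagagccAGACTcagtaattgaaga
COX11 (chr17:54968505-54968534, minus strand, exon 1 of 4, CDS): cagagtggagtgGGACAggaggtgccgaga
COX15 (chr10:99714508-99714537, minus strand, exon 9 of 9, 3′UTR): cagagatcataaGAACTtgggcttttctac
COX19 (chr7:967501-967530, minus strand, exon 3 of 3, 3′UTR): cgcaccgcactcTGACCcatcaggagtgtg
NDUFAF1 (chr15:41396688-41396717, minus strand, exon 2 of 5, CDS): gaggtcttgctgGAACAagccaaggttgtc
MRPL16 (chr11:59806508-59806537, minus strand, exon 4 of 4, CDS): ctgtgagccgcgGGACTctagagaagatgc
MRPL27 (chr17:50368050-50368079, minus strand, exon 4 of 4, 3′UTR): gccatcggacagAGACTggagcccaggtga
MRPL35 (chr2:86212702-86212731, plus strand, exon 4 of 4, 3′UTR): aagtgggatggcTGACAggcacataactta
MRPL36 (chr5:1798608-1798637, minus strand, exon 2 of 2, 3′UTR): agagacagatgtAGACCctttccctccaga
MRPS26 (chr20:3047869-3047898, plus strand, exon 4 of 4, 3′UTR): ggggcccagtaaGGACAgtgcccgccaggg
COX6B2 (chr19:55350428-55350457, minus strand, exon 5 of 5, 3′UTR): atgctgcgacaaGGACAgggaatggtcggt

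In the 21 regions examined this way, each had at least 1 DRACH within 50 nt of its median summit, and the A of the nearest one lay within 25 nt in 18. It lay farther off in NDUFAF1, MRPL36 and MRPS27, at -26, -29 and -36 nt. The nearest motif began with GGAC in 7 regions and was GGACT in 1, that of MRPL16. A DRACH is common in any sequence of this length. Among member peaks the sense strand held a DRACH within 50 nt in 92.8% ± 2.52 of the T24 and 89.7% ± 2.94 of the T24R2 peaks (SD over 5 libraries per line). The opposite strand held one in 72.5% ± 8.28 and 73.7% ± 1.52. Over the exonic peaks of all protein-coding genes the sense shares were 90.4% in T24 and 89.8% in T24R2, and the antisense shares 70.9% and 72.2%.

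m6A peaks were found in 47 of 78 genes of mitochondrial ribosomal proteins, in 9 of 17 genes of complex I and complex IV assembly, and in 18 of 86 genes of respiratory chain and ATP synthase subunits. A peak in any list was present for 74 of 181 members (40.9%), beside 51.1% of all protein-coding genes, and 31 members (17.1%) had one in all 10 lists, beside 27.5%. For part of these the summit lay in an exon of an overlapping gene or only in a transcript other than the canonical one. Counting only summits in an exon of the member's own canonical transcript that lay in no exon of another gene, 51 members (28.2%) had a peak in any list and 21 (11.6%) in all 10, beside 43.8% and 23.2% of protein-coding genes. The lists carry no strand, so a summit in overlapping genes cannot be given to either one.

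The mitochondrial ribosome accounted for most of the members with a peak. Of the 49 genes of the large subunit (MRPL), 30 had a peak in any list and 12 had one in their own canonical exons in all 10 lists, namely MRPL10, MRPL14, MRPL16, MRPL17, MRPL27, MRPL34, MRPL35, MRPL36, MRPL43, MRPL44, MRPL50 and MRPL57. Of the 29 genes of the small subunit (MRPS), 17 had a peak and 3, MRPS26, MRPS27 and MRPS30, had one in all 10 in their own exons. Over both subunits, 47 of 78 genes (60.3%) had a peak by the wider count and 35 (44.9%) by the narrower one, close to the 43.8% of all protein-coding genes.

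Among the factors that build complex IV, 5 of 9 had a peak (55.6%, beside 51.1% of all protein-coding genes). Of the 9, 4 had it in all 10 lists in their own exons (44.4%, beside 23.2%). These 4 were COX10, the farnesyltransferase of heme A synthesis, COX15, the heme A synthase, COX11, which delivers copper to the COX1 subunit, and COX19, a small copper-handling protein. COX14, a factor for COX1 synthesis, had a peak in 8 lists, 4 of each line. Of the 8 complex I assembly factors, NDUFAF1 had a peak in all 10 lists and NDUFAF7, a methyltransferase that modifies a core subunit of complex I, in 9. The NDUFAF7 summit lay 4 nt before the stop codon at chr2:37248050-37248456, and its enrichment stood at the percentile 72.2 ± 12.9 over the 4 T24 lists that had it and 75.8 ± 11 over the 5 T24R2 lists (SD). Percentiles run from 0 for the weakest to 100 for the strongest IP over input fold of a list.

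The subunits of the enzymes themselves were mostly without a peak. Over complexes I, III and IV and the ATP synthase, 18 of 86 genes (20.9%) had a peak in any list, 9 of 86 (10.5%) had it in their own canonical exons, and only 1, NDUFV3, had it there in all 10 lists. NDUFV3 is an accessory subunit of complex I, and its summits lay in the coding sequence of exon 3 of 4 in 9 lists and in exon 4 in 5. Of 40 genes grouped with the complex I subunits, 31 had no peak. Groups followed the symbol, so NDUFA4, NDUFA4L2 and the read-through NDUFC2-KCTD14 were counted there. Of 17 complex IV subunit genes (COX4 to COX8), COX6B2 alone had one. Of 20 ATP5 genes, 17 had none. For ATP5PF, coupling factor 6 of the ATP synthase, all 10 summits also lay in an exon of GABPA. ATP5MF-PTCD1 is a read-through of 2 genes, and its regions lay in exons of PTCD1, an RNA-binding protein of mitochondria, or, for 1 of 7, mostly of CPSF4.
Complex III had a peak in 5 of its 9 UQCR genes, but none of these in 5 or more lists. UQCR10, UQCRB, UQCRFS1, the iron-sulfur protein of the complex, and UQCRHL each had it in 1 list and UQCR11 in 4.

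**Figure D1:**
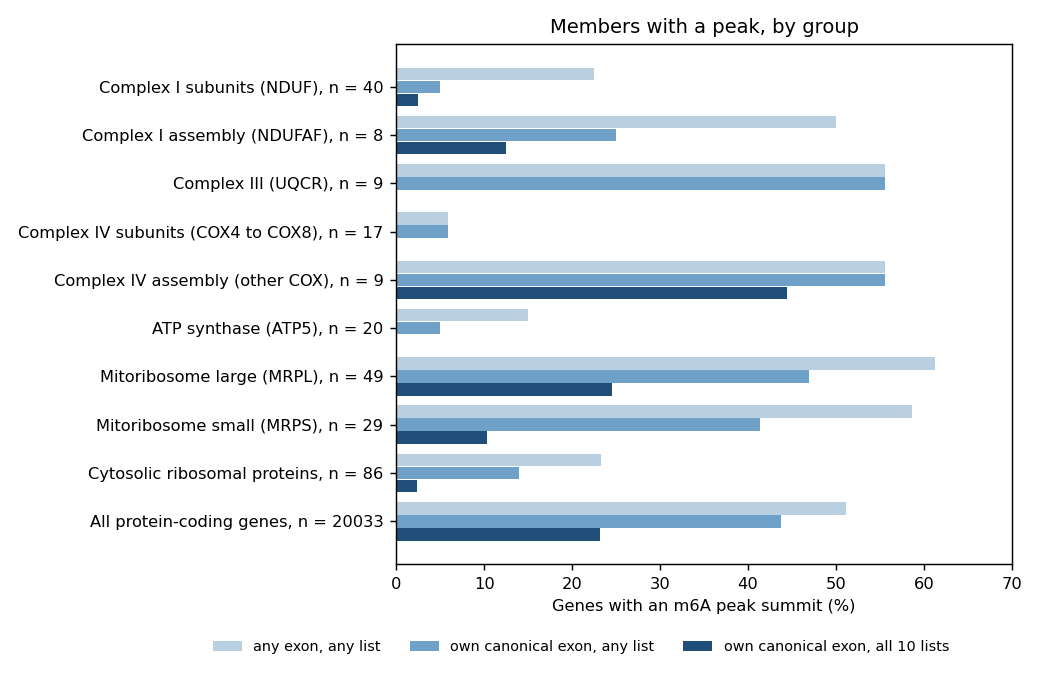
Percent of the genes of each group with an m6A peak summit, for any exon and any list (light), own canonical exons and any list (middle) and own canonical exons in all 10 lists (dark), with cytosolic ribosomal proteins and all protein-coding genes below. The complex IV assembly group has the longest dark bar among the members, 44.4%, followed by the large mitoribosome subunit at 24.5%, while complexes III and IV and the ATP synthase have none.

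Genes that serve the same pathways under other names were looked at for comparison. The 52 other genes of mitochondrial translation were aminoacyl-tRNA synthetases, ribosome assembly and translation factors, and some ribosomal proteins with other symbols, such as DAP3 and PTCD3. Of these 52, 42 (80.8%) had a peak in any list, beside 51.1% of all protein-coding genes. In all 10 lists in their own exons 23 (44.2%) had one, beside 23.2%. Of 49 other respiratory chain genes, most of them assembly factors, 35 (71.4%) had a peak. In all 10 lists in their own exons 11 (22.4%) had one, among them SCO1, COA7 and FOXRED1. Of 23 regulators of mitochondrial gene expression, 19 (82.6%) had a peak. In all 10 lists in their own exons 12 (52.2%) had one, including NRF1 and GABPA, transcription factors for respiratory genes. Of the 86 cytosolic ribosomal protein genes, 20 (23.3%) had a peak and 5 (5.81%) had one in all 10 lists, the latter beside 27.5% of all protein-coding genes. In their own exons 2 of them (RPL37 and RPL7L1) had it in all 10. These counts are nearer to those of the respiratory chain subunits. In the order given, the groups had median transcripts of 2551, 1647, 3616 and 858.5 nt, beside 1074 nt for the members. The groups were not matched in length.

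Members are short transcripts, and length moved with having a peak. The canonical transcript had a median of 1184 nt in the 74 members with a peak and 945 nt in the 107 without, and the longest exon 677 nt and 394 nt. For all protein-coding genes the medians were 3693 nt with a peak and 2163 nt without. The 21 members with a peak in their own exons in all 10 lists had a median transcript of 1749 nt and a median longest exon of 1187 nt. The groups differed in length too. The median transcript was 716.5 nt in the respiratory chain and ATP synthase subunits and 1242 nt in the mitochondrial ribosomal proteins. It was 2184 nt in the genes of complex I and complex IV assembly. Whether length accounts for the differences between the groups was not tested.

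Set beside genes of like length, the members did not lie below the rest throughout. Up to 700 nt, 15 of 57 members (26.3%) had a peak in any list, beside 18.6% of all genes of that length. From there up to 1000 nt the count was 17 of 30 (56.7%) beside 20.7%, and up to 1500 nt it was 14 of 29 (48.3%) beside 30.05%. In the longer classes the order turned: 13 of 34 (38.2%) beside 43.5% up to 2500 nt, and 15 of 31 (48.4%) beside 63.5% above it. The counts in own canonical exons had the same order in each of the 5 classes. By length of the longest exon they gave another picture. Up to 300 nt 5.36% of members and 5.68% of all genes had a peak in own canonical exons. From 800 to 1500 nt it was 39.1% and 40.6%. Between 300 and 800 nt members lay above all genes, and over 1500 nt below them. These are descriptions of gene lists, and how strongly the genes of each class were transcribed was not analysed here.

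**Figure D2:**
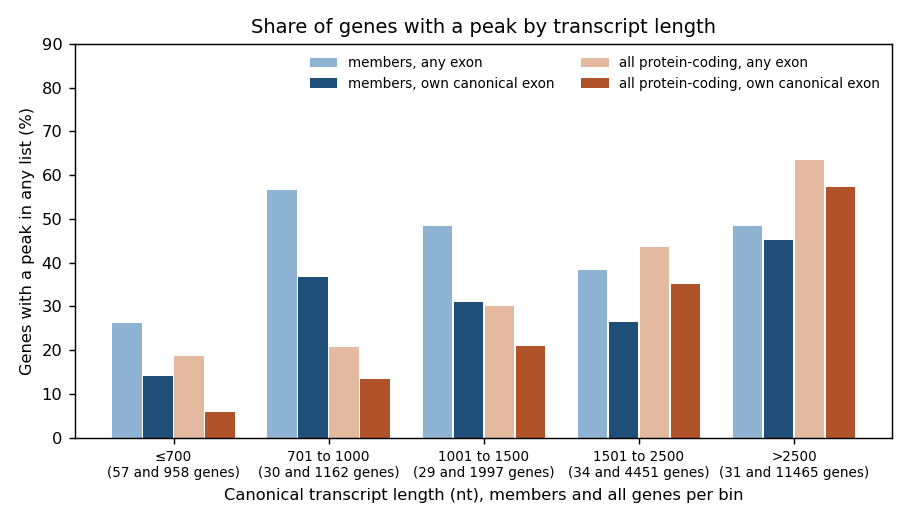
Percent of genes with a peak in any list by canonical transcript length, for members (blue) and all protein-coding genes (orange), with pale bars for any exon and dark bars for own canonical exons. Members lie above all genes in the 3 classes up to 1500 nt and below them in the 2 longer ones.

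Length alone did not sort the members. The members with the longest canonical transcripts and no peak in any list were MRPL42 (15557 nt), NDUFS1, the largest core subunit of complex I (11660 nt), NDUFA9 (8356 nt), COX18, which inserts a COX subunit into the membrane (6824 nt), and ATP5F1A, the alpha subunit of the ATP synthase (5761 nt). The members with the shortest transcripts and a region called in all 10 lists were NDUFA13 (521 nt), ATP5PF (526 nt), MRPL36 (609 nt), NDUFAF2 (632 nt) and MRPL27 (686 nt). Of these 5, only MRPL36 and MRPL27 had the summit in their own exons in all 10 lists. For NDUFA13, 1 of 22 summits in the region lay in a member exon, and for NDUFAF2, 4 of 10.

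Overlapping peaks of the lists merged into 127 regions with at least 1 summit in a member exon. A library was said to have a region when any of its peaks overlapped it. Of these regions 38 (29.9%) were called in all 10 lists, beside 21.9% of all 43676 regions, exonic or not, and 26 in 1 list. In 20 of the 38 the summits lay in the member's own canonical exons, with none in another gene and at least 50% of all summits in the member. ATP5MF-PTCD1 had the most regions (7), followed by COX10 (6) and by COX19, MRPS25 and NDUFB9 with 4.

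The regions in own canonical exons that were called in all 10 lists sat around the stop codon. Of the 20, 16 lay in the last exon and 14 within 200 nt of the stop codon, with the median summit from 958 nt before it to 2045 nt after it. The exon had a median length of 700 nt, and the shortest was 322 nt, exon 3 of COX10. The highest and lowest summit of a region differed by a median of 91 nt over the lists, and by 14 nt in MRPL16. COX10, COX11, MRPL44 and NDUFAF1 had their region well inside the coding sequence and not in the last exon. MRPL35 and COX19 had theirs far into a long 3′UTR.

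Short transcripts leave little room away from the stop codon, and the shares were read against that. Of member summits in canonical exons, 59.1% ± 3.09 of those in T24 and 54.6% ± 3.75 of those in T24R2 (SD, n = 5 each) lay within 200 nt of the stop codon, beside 23.3% and 24% for all protein-coding genes. That stretch held 18.9% of the pooled transcript bases of the 51 members with a peak in their own exons and 8.59% in all such genes. Long transcripts weigh more in a pooled share, and the median share per gene was 28.8% and 10.2%. The summit shares also include summits shared with other genes. The last exon held 76.1% of the pooled bases of these members, and 59.1% in all such genes. The median share per gene was 70.8% and 59.9%. Of member summits in canonical exons, the last exon held 77.5% in T24 and 72.3% in T24R2. The summit share in the last exon was thus near the pooled share of bases there. In T24 it was above the median share per gene.

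**Figure D3:**
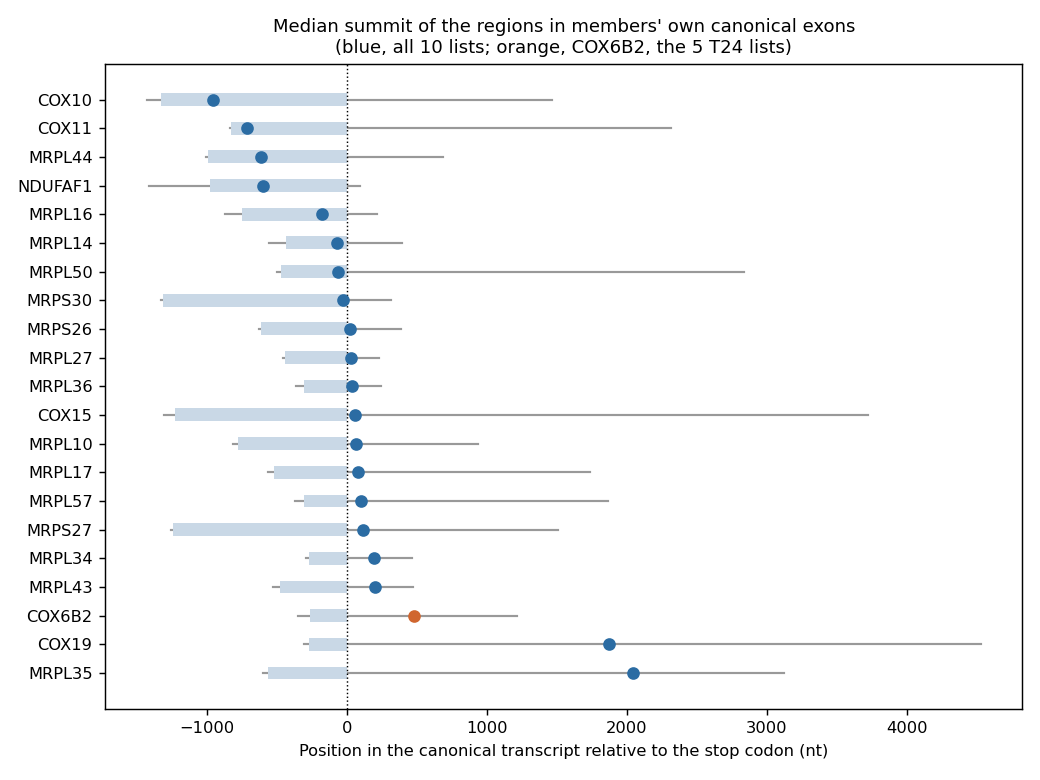
Canonical transcripts of the 20 members whose region in their own exons was called in all 10 lists (blue points) and of COX6B2 (orange point, the 5 T24 lists), aligned at the stop codon, in nt. Boxes are coding sequence, lines are untranslated sequence, points are the median summit of the region. Of the 20 blue points, 14 lie within 200 nt of the stop codon.

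Member peaks had a lower IP over input fold than most of their lists. The median percentile of the IP over input fold averaged 34.7 ± 6.59 over the T24 and 39.1 ± 2.41 over the T24R2 libraries (SD, n = 5 each), below the median of all protein-coding exonic peaks in 10 of 10 lists (on average 48.5 and 49.95). By the −log10 q-value, which also grows with the amount of reads, the median percentile was 50.2 ± 7.58 over the T24 and 54.1 ± 3.77 over the T24R2 libraries. Of the 38 regions called in all 10 lists, 17 had a mean percentile under 50, and of the 20 in own canonical exons 11 did.

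The strongest member regions by mean percentile over the 10 lists included several that other genes may account for. The first, at chr5:61154158-61155928 in NDUFAF2, stood at 95.9, but 6 of its 10 summits lay outside member exons. The next, at chr1:1400536-1402173 in MRPL20, stood at 86.4, with 3 of 13 summits in the gene. A COX10 region at chr17:14230872-14231557, with all 10 summits in a 3′UTR exon outside the canonical transcript, stood at 83.6. NDUFA13 (77.0), ATP5PF (75), MRPL35 (74.4), MRPL46 (73.8) and MRPL51 (70.3) followed. Of these, MRPL35 alone had its region in its own canonical exons, since MRPL46 shares its summits with an overlapping gene model and MRPL51 with NCAPD2. In the small subunit MRPS25 stood highest (64.9), in a region shared with NR2C2.

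MRPL35, a protein of the large subunit, shows how far the fold moved between libraries of 1 line. The IP over input fold was 20.8, 5.65, 12.6, 13.3 and 4.86 in T24 replicates 1 to 5. It was 15.8, 23.6, 8.76, 20.6 and 6.48 in T24R2 replicates 1 to 5. The lines overlapped over nearly the whole range.

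MRPL27, the next strongest in its own exons among the regions called in all 10 lists, had a fold of 8.36, 9.40, 10.2, 11.1 and 3.94 in T24 and 6.91, 14.7, 9.19, 9.34 and 13.9 in T24R2. The lowest value was that of T24 replicate 5, and the lines overlapped. NDUFAF1 was at 11.5, 4.71, 10.3, 10.1 and 8.87 in T24 and at 8.07, 5.93, 6.87, 6.90 and 7.25 in T24R2. In T24 replicate 2 it was below every T24R2 library, and in the other T24 libraries above every one.

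At the low end MRPL16 was called in all 10 lists with the summit within 14 nt, yet its fold was 2.17, 2.28, 2.21, 2.7 and 2.94 in T24 and 3.47, 4.13, 2.76, 3.81 and 2.25 in T24R2. Its mean percentile of 3.42 was the lowest of the 38 regions. MRPS34, of the small subunit, was like it, with a mean percentile of 4.43 over its 9 lists.

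**Figure D4:**
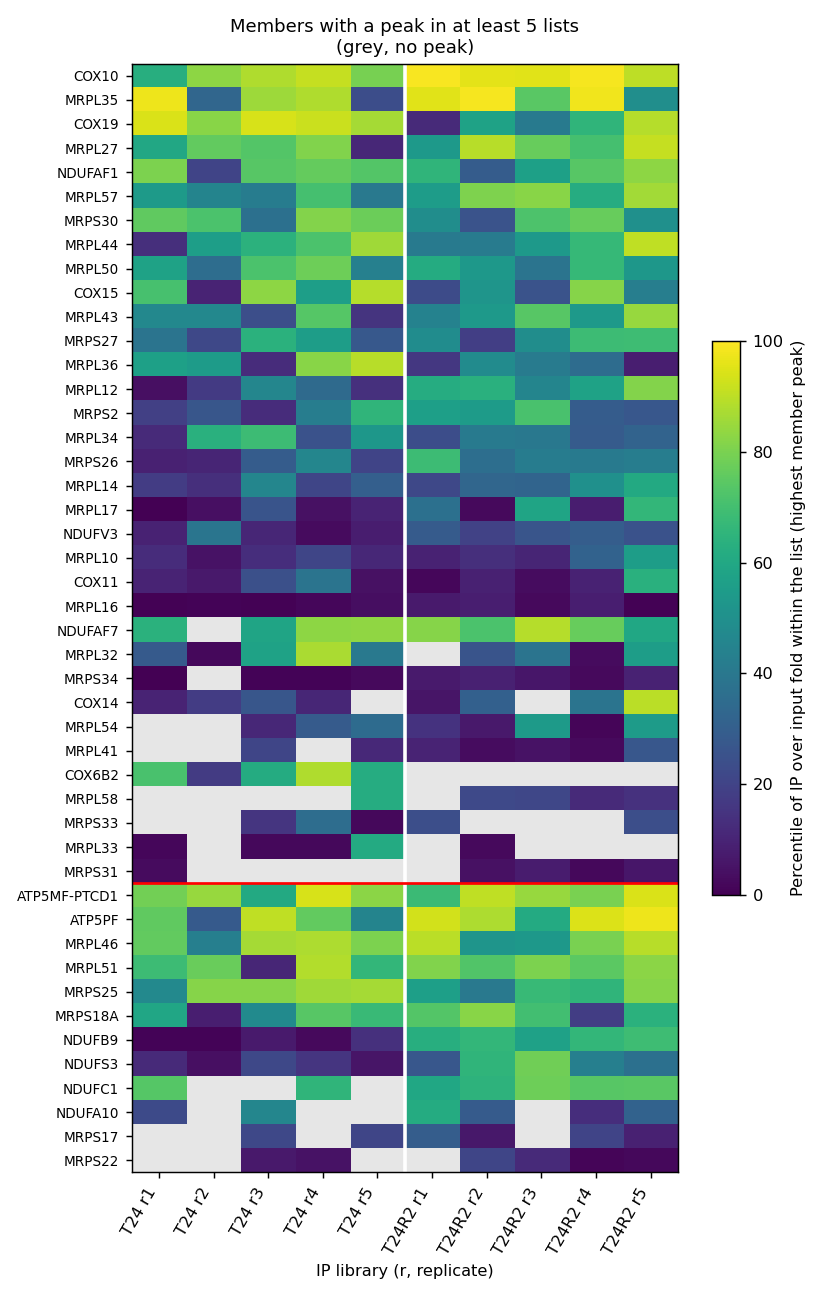
Percentile of the IP over input fold of the highest member peak in each of the 10 IP libraries (columns) for the 46 members with a peak in at least 5 lists (rows). Grey means no peak, and the red line parts the 34 members with at least 5 lists in their own canonical exons (above) from the others. COX6B2 is filled in the 5 T24 columns and grey in the 5 T24R2 columns, and MRPL16 is dark in all 10 columns, as is MRPS34 in the 9 where it has a peak.

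Over all peaks of the lists, the number of members with a peak did not differ between the lines beyond the spread of the libraries. It was 44, 35, 51, 46 and 45 in T24 and 44, 52, 46, 50 and 59 in T24R2, on average 44.2 ± 5.81 (SD, n = 5) and 50.2 ± 5.85 (SD, n = 5), and the lines overlapped (two-sided exact permutation p = 0.190). With only peaks of −log10 q of at least 10 the means were 25.4 and 36.2 (exact permutation p = 0.0238). As a share of all protein-coding genes with a peak, members made up 0.611% ± 0.0583 of those in T24 and 0.616% ± 0.0419 of those of T24R2 (SD over 5 libraries, exact permutation p = 0.889). All protein-coding genes with a peak numbered 7215 in T24 and 8135 in T24R2.

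Member exons held more peaks in T24R2. The counts were 53, 44, 65, 57 and 58 in T24 and 68, 67, 66, 73 and 97 in T24R2, with no overlap between the lines. The means were 55.4 ± 7.70 (SD, n = 5) and 74.2 ± 13 (SD, n = 5), and the exact permutation p of 0.00794 is the smallest that 5 against 5 libraries allow. As a percent of the exonic peaks of protein-coding genes they were 0.389% and 0.446% (exact permutation p = 0.0159).
This difference was carried in part by summits outside the members' own canonical exons. Within them the counts were 33, 28, 44, 38 and 40 in T24 and 39, 39, 37, 44 and 56 in T24R2, which overlap, with means of 36.6 and 43.0 (exact permutation p = 0.238). Without NDUFB9 and ATP5MF-PTCD1 the means over all exons were 51.6 and 65.4 (exact permutation p = 0.0317).

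**Figure D5:**
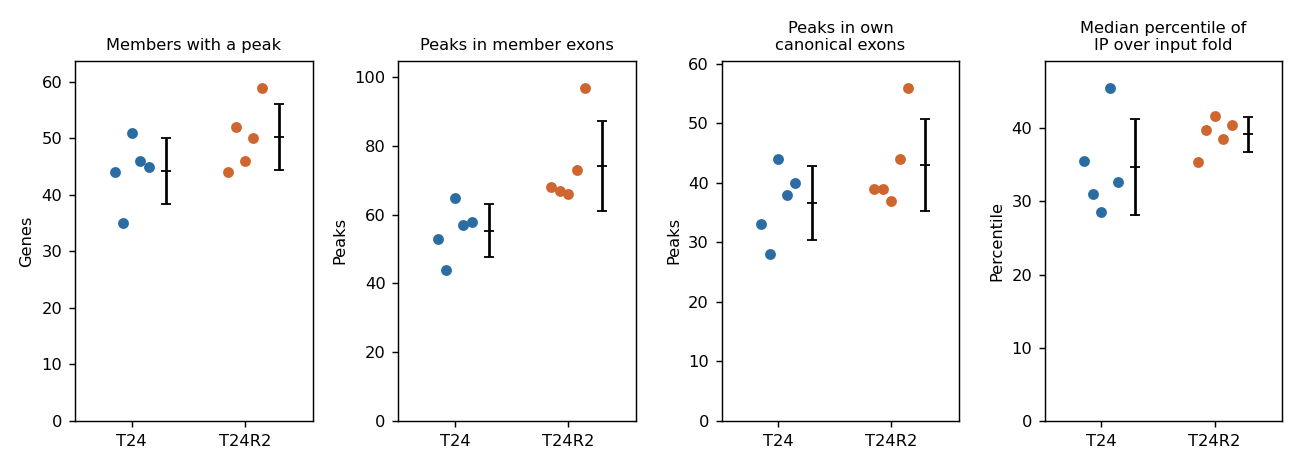
Values of each IP library (points) with the mean and SD of the 5 libraries per line (black), for the number of members with a peak, the peaks in any member exon, the peaks in own canonical exons, and the median percentile of the IP over input fold. The T24 and T24R2 points are apart only in the second panel, 44 to 65 against 66 to 97.

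The enrichment of member peaks within their lists did not differ between the lines (34.7 and 39.1, exact permutation p = 0.190). Every list was also cut to its 17203 peaks of highest −log10 q-value, and the fold was ranked again within these. The difference then turned to -10.0, lower in T24R2 (exact permutation p = 0.0238). Its direction thus depended on which peaks were kept, and the cause was not tested.

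Of the member peaks, 49.1% ± 4.57 of those in T24 and 43.3% ± 3.26 of those in T24R2 lay in 3′UTRs (SD, n = 5 each, exact permutation p = 0.0397, adjusted over the 3 position classes 0.119). In coding sequence they were 40.01% ± 4.12 and 43.9% ± 4.49 (SD, n = 5 each, exact permutation adjusted p = 0.286), and in 5′UTRs 5.47% and 6.19% (exact permutation adjusted p = 0.484). For all protein-coding genes 57.0% lay in coding sequence in both lines and 31.6% and 31.3% in 3′UTRs. The share in the last exon was taken only over the member summits in canonical exons, not over all member peaks. It was 79.5%, 77.1%, 82.4%, 77.3% and 71.4% in T24 and 70.8%, 76.6%, 70.2%, 72.2% and 71.8% in T24R2. The means were 77.5% ± 4.02 and 72.3% ± 2.51 (SD, n = 5 each, exact permutation p = 0.0476). The value of T24 replicate 5 fell among those of T24R2, and without NDUFB9 and ATP5MF-PTCD1 the exact permutation p was 0.0714. The excess of sense over antisense DRACH was 20.4 and 16.02 percentage points (exact permutation p = 0.333).

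Regions that were present in 1 line and absent from the other were few among the members, as they were over all regions. Of the 127 member regions, 1 was found in every T24 and no T24R2 library, and 3 in every T24R2 and no T24 library, beside 1.05% and 3.02% of all regions. By gene it was 1 of 74 in T24, COX6B2, and 0 in T24R2, beside 1.51% and 2.39% of all genes with a peak.

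The T24 region was in the 3′UTR of COX6B2 (chr19:55350182-55350664, in exon 5 of 5, 1097 nt long), a form of complex IV subunit 6B known from testis. Its fold was 9.76, 4.51, 8.55, 13.2 and 7.57 in T24 replicates 1 to 5, with no peak in any T24R2 list. The percentile was 60.001 ± 26.1 (SD, n = 5), and all 5 summits lay in the gene's own canonical exon. By Fisher's exact test p was 0.00794, the smallest possible, and 0.195 after adjustment over all regions. An absent peak can come from less m6A or from less of the transcript, and peak lists cannot tell these apart.

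None of the 3 T24R2 regions lay in own canonical exons free of other genes. In NDUFB9, a complex I subunit gene, the region at chr8:124567811-124568324 had a fold of 6.08, 9.38, 6.95, 8.75 and 8.27 in T24R2 and no peak in T24. It lay in a 3′UTR exon outside the canonical transcript, and 2 of the other 3 regions of NDUFB9 lay in exons of MTSS1. In ATP5MF-PTCD1 the region at chr7:99433287-99433552 lay in an exon of PTCD1. In NDUFV3 the region at chr21:42879758-42880220 had 1 of 5 summits in a member exon. Each had the same exact p of 0.00794 and 0.195 after adjustment.

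By Fisher's exact test on presence, 10 of 127 member regions (7.87%) had an unadjusted p under 0.05 and were more frequent in T24R2, beside 7.11% of all regions, and 2 (1.57%) were more frequent in T24, beside 2.09%. After adjustment 0 passed, as over all regions. In own canonical exons these were COX6B2 in T24 and 2 in T24R2. The latter were a 3′UTR region of MRPL19, found in 4 of the T24R2 libraries and in 0 of the T24 libraries, and a coding region in exon 3 of 4 of MRPL44, found in 5 and in 1 (Fisher's exact p = 0.0476 each, adjusted 0.517). By gene, 1 of 74 members was more frequent in each line at an unadjusted p under 0.05, MRPL19 in T24R2 and COX6B2 in T24, beside 5.8% and 2.28% of all genes with a peak, and 0 after adjustment. More T24R2 than T24 libraries had the region in 63 member regions and fewer in 21 (49.6% and 16.5%), beside 52.6% and 19.6% of all regions, so this tilt was near that of the lists as a whole.

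Enrichment was compared in the 9577 regions called in all 10 lists, of which 38 were member regions, by limma on the log2 IP over input fold centred on each library's median. No member region passed an adjusted p of 0.05 in either direction, while over all regions 46 (0.48%) were higher and 30 (0.313%) lower in T24R2. Before adjustment 5 member regions (13.2%) were higher and 2 (5.26%) lower at p under 0.05, beside 7.6% and 6.36% of all regions. The exact permutation test on percentiles also gave 0 after adjustment, over the members and over all regions, and before it 6 of 38 (15.8%), beside 13.9% of all regions. The median log2 difference was 0.02 over the member regions and 0.02 over all, the member values ran from -0.72 to 0.95, and their median standard error was 0.27.

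The region nearest to the threshold was in NDUFB9 (chr8:124552902-124553552), where all 10 summits also lay in an exon of MTSS1. Its fold was 2.34, 2.36, 3.74, 2.89 and 4.15 in T24 and 4.68, 7.13, 5.17, 6.25 and 8.67 in T24R2, without overlap. The log2 difference was 0.95 ± 0.25 (SE), with a limma adjusted p of 0.0709. The other 4 that were higher in T24R2 before adjustment were the COX10 region in the alternative 3′UTR exon, MRPL17, MRPL12 and NDUFS3, the last shared with PTPMT1.

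Among the regions in own canonical exons, MRPL17 and MRPL36 stood farthest apart, in opposite directions. MRPL17 had a fold of 1.95, 3.01, 2.49, 3.24 and 3.80 in T24 and 5.64, 3.10, 7.09, 3.80 and 8.28 in T24R2, a log2 difference of 0.79 ± 0.31 (SE, limma adjusted p = 0.240). T24R2 replicates 1, 3 and 5 were above every T24 library and the other two within the T24 range.

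MRPL36 had a fold of 8.06, 7.14, 4.39, 11.5 and 12 in T24 and 4.33, 7.47, 5.73, 5.95 and 3.68 in T24R2, a log2 difference of -0.72 ± 0.30 (SE, limma adjusted p = 0.271). T24 replicates 4 and 5 carried the highest values and T24 replicates 2 and 3 lay among the T24R2 libraries. COX10, in the alternative exon, was at 8.08, 10.6, 13.5, 14.6 and 5.74 in T24 and at 21.3, 18.5, 14.6, 22.1 and 13.5 in T24R2 (log2 difference 0.73 ± 0.27 SE, limma adjusted p = 0.208), with a slight overlap, whereas its coding region in exon 3 was at a log2 difference of 0.02 ± 0.28 (SE, limma adjusted p = 0.988).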

How the data were processed

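For 5 T24 and 5 T24R2 IP libraries, grouped by sample title, the list of peaks was used. Per the paper's methods and the submitters' processing notes, the authors aligned reads to hg38 with STAR (2.7.0) and GENCODE v39, kept uniquely mapped reads without duplicates with SAMtools (1.10) and called peaks of IP over input per library with MACS2 (3.0.0a6). The deposited fold enrichment is a ratio of IP over local input signal. The deposited −log10 p-value and −log10 q-value (at least 2.00 in every list) and the score are the caller's own. The authors' merged region list was used as deposited for positions. The input libraries have no list and were not analysed here.

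Summits were placed in exons of GENCODE 44 with bedtools (2.31.1), and the canonical transcript was the one the annotation tags as such. Sequences are from the hg38 reference. Per-library values were compared by two-sided exact permutation tests over all 252 assignments, presence by Fisher's exact test and enrichment by limma (3.58.1), with Benjamini-Hochberg adjustment over all regions or genes, and the position classes over 3. The code was tested on simulated data. No table of counts was used, and nothing says that replicates came from separate cultures, so p-values measure the spread between these samples, which may be technical.

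Members and gene lists were chosen with earlier results of these data known. Genes were named by a rule: members with a region found in 1 line only, those past the limma threshold, the 8 strongest regions called in all 10 lists, the 5 with most regions, the 5 longest without a peak and the 5 shortest with a region in all 10, and the strongest of each of 8 groups. MRPL12, MRPL16, MRPL17, MRPS34, NDUFS3, NDUFAF1, NDUFAF7, MRPL19, MRPL44 and the genes listed by group were named after their values were seen, as were the distance to the stop codon and the length classes.

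The alternatives for peaks were −log10 q of at least 5 and 10, the 17203 peaks of highest −log10 q of each list, no summits in other genes, and canonical exons only. The others were a window of 25 nt, a cover of 50%, 4 of 5 against 1 of 5 libraries, other normalizations, a replicate block, and each library left out in turn. Shares of exonic peaks, the count without NDUFB9 and ATP5MF-PTCD1, and the canonical exons without other genes were chosen after seeing the data.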

Additional observations from a re-analysis of the deposited data

Results flagged for a closer look

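The T24R2 library of replicate 5 held 97 member peaks, while the other T24R2 libraries held between 66 and 73. Its gap to the nearest of them was 0.774 of the range of the 5, above Dixon's critical value of 0.71, in 1 of 18 groups of libraries examined, and chance gives such a gap in about 1 in 20 groups. This list was also the longest, with 33120 peaks. Without it the difference between the lines in member peaks was 13.1, with an exact permutation p between 0.00794 and 0.0238 over all libraries left out in turn.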

How the results depend on the processing

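Peak lists without read counts, strand or expression limit what can be said: no interval that needs depth can be given, and an absent peak is not an absent modification. Of 387 recomputed values, 330 were counted as unchanged. Differences between the lines had to keep their sign and call, and counts of regions or genes to stay within a fixed ratio of the main count. Other values had to move by less than their spread. Enrichment differences of named regions made up 110 of the 387, of which 109 were counted as unchanged. All differences are T24R2 minus T24, and the cause of the changes was not tested.
With −log10 q of at least 5, the median percentile difference was -2.80 and the DRACH excess 0.667. With at least 10, they were -5.73 and 0.810, members with a peak differed by 10.8 (exact permutation p = 0.0238) and the last exon share by -4.62. With −log10 q of at least 5 or 10, 0 regions and 0 genes were found in T24 only, and with 10, 2 genes in T24R2 only. With the same number of peaks per list, the percentile difference was -10.03, the share of genes with a peak -0.00231 percentage points, and 1 region was found in T24R2 only.
Without summits in other genes, the last exon share differed by -3.70 and 1 gene was found in T24R2 only. With canonical exons only, member peaks differed by 9.8, the share of genes by -0.0169, the coding share by 9.76 and the 3′UTR share by -9.76 (exact permutation adjusted p = 0.0238 for both), the 5′UTR share by 0 since it was empty in both lines, and 1 region was found in T24R2 only. With canonical exons and no other gene, member peaks differed by 6.4. Without NDUFB9 and ATP5MF-PTCD1, the last exon share differed by -4.30. The DRACH excess within 25 nt differed by -11.8 (exact permutation p = 0.0317).
With a cover of at least 50%, 0 regions were found in T24 only. At 4 of 5 against 1 of 5 libraries, 3 regions and 2 genes were found in T24 and 13 regions and 3 genes in T24R2.
With each library left out in turn, the share of genes with a peak differed by -0.0169 to 0.0233 (below 0 without T24 replicate 2, T24R2 replicate 2, at -0.00520, or T24R2 replicate 5, at -0.00636), the percentile by 2.94 to 7.18 (exact permutation p = 0.0238 without T24 replicate 4), the 3′UTR share by -7.10 to -3.90 (adjusted exact permutation p = 0.0476 without T24R2 replicate 5) and the last exon share by -6.72 to -3.99 (exact permutation p 0.0159 to 0.0873, over 0.05 without each library except T24 replicate 5 and T24R2 replicate 2). Regions found in T24 only numbered 1 to 2, in T24R2 only 3 to 5, genes in T24R2 only 0 to 1, and regions higher in T24R2 by limma 0 to 1, the 1 being NDUFB9 without T24 replicate 5.
Deviations of the fold in same-numbered replicates had correlations of -0.0419 to 0.121, so the numbers were not taken to pair the samples. Such correlations cannot show whether same-numbered libraries were handled together. With the replicate block, member peaks differed by 18.8 (exact permutation p = 0.0625, the smallest such a block allows) and the last exon share by -5.20 (exact permutation p = 0.125), and 0 member regions passed in limma.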
